A study of Rattus norvegicus with 196 samples.

Results

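Fos was followed across 25 regions of the rat brain after 6 weeks of fluoxetine. It is 1 of the 29188 Ensembl transcripts counted (ENSRNOT00000010712) and was found by its name in the study's list of named transcripts. That list holds transcripts that the study itself found changed in these samples. Fos is the classic immediate early gene: its protein pairs with a Jun protein to form the AP-1 transcription factor. In neurons, synaptic input that raises calcium or cyclic AMP leads to phosphorylation of CREB and SRF partners already bound at the Fos promoter, and transcription starts within minutes and is shut off again soon after. Because of this, Fos RNA in brain tissue is widely used as a mark of recent neuronal activity, and its level at one moment depends on what the animal has just been through.

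The rats were 2 months old when treatment began, and the study's methods give them as male Long-Evans animals. The fluoxetine group (FT) took 18 mg/kg per day of the drug, a selective serotonin reuptake inhibitor, in the drinking water, and the control group (Sham) drank water. Each of the 196 libraries (98 FT and 98 Sham) is a pool of punches of one region from several animals, so no value belongs to a single rat. Most groups hold 4 libraries, numbered 1, 3, 4 and 5. mPoA has 2 FT libraries and Arc has 2 Sham libraries. According to the study's methods, FT and Sham libraries of a number were processed in parallel, and behavioural tests were run on other animals. Regions of the same number may share animals, so the regions are not independent replicates. The region codes are those of the labels, and in a pool of tissue, fewer active cells and less Fos RNA per cell cannot be told apart.

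Reads on transcripts ranged from 4586 to 50893913 per library, with a median of 11921178. Fos took a median of 220.5 reads per library. Replicate 3 libraries held fewer, 0 to 181 Fos reads against 29 to 1712 in the others, and their 50 most abundant transcripts took a median of 68.2% of reads against 32.2% over all libraries. The Sham Nts library of replicate 3 had 4586 reads and none on Fos, which allows a level of up to 654 CPM (counts per 1000000 reads) by counting error alone. The Sham ILC library of replicate 3 had 2 Fos reads. The replicate 1 pair of CGC (cingulate cortex) was left out of the fits because the authors dropped CGC libraries before their own tests, read here as that pair. Levels are given in CPM after TMM scaling over all libraries, as mean ± SD, with n = 4 unless stated.

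Fos was highest in the medial prefrontal and cingulate cortex, in both groups. In PLC (prelimbic cortex) the level was 31.8 ± 11.1 CPM in Sham and 55.4 ± 21.3 CPM in FT. In CGC it was 31.2 ± 10.4 CPM in Sham and 68.3 ± 21.6 CPM in FT, with n = 3 in each. In ILC (infralimbic cortex) it was 27.4 ± 12.5 CPM in Sham and 39.9 ± 11.1 CPM in FT. The insular cortex did not share this high level: InsularC held 13.6 ± 4.11 CPM in Sham and 15.7 ± 3.21 CPM in FT.

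Striatal, septal and amygdala regions and the bed nucleus lay lower in Sham, and their FT means lay further apart. NAcSh (nucleus accumbens shell) and NAcC (its core) had nearly equal Sham levels, 16.002 ± 6.47 and 16.8 ± 6.73 CPM. In FT the shell held 37.6 ± 5.07 CPM and the core 21.7 ± 5.05 CPM. The medial septum, MS, had Sham libraries at 16.2 ± 4.72 CPM and FT libraries at 31.4 ± 7.23 CPM. LS (lateral septum) stood at 13.8 ± 5.70 CPM in Sham and 27.0 ± 5.26 CPM in FT, a similar spacing. BNST, the bed nucleus of the stria terminalis, had 10.1 ± 2.57 CPM in Sham and 17.4 ± 4.95 CPM in FT. Values for BLA (basolateral amygdala) were 9.55 ± 3.39 CPM in Sham and 16.8 ± 4.14 CPM in FT. Those for CMA (centromedial amygdala) were 15.5 ± 4.22 and 22.5 ± 6.14 CPM.

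Thalamic and habenular tissue also had higher FT means, with wide spreads. MDT (dorsomedial thalamus) held 18.9 ± 10.2 CPM in Sham and 30.9 ± 9.00 CPM in FT. HB (habenula) held 14.4 ± 3.06 and 26.6 ± 10.5 CPM. The region labelled PVN held 15.1 ± 7.83 and 31.0 ± 11.1 CPM. The study's region list places PVN in the thalamus. The hypothalamic paraventricular nucleus is defined by the peptide genes Avp and Oxt, and in the 4 Sham PVN libraries these averaged 1.83 and 5.85 CPM. Tcf7l2, a transcription factor of thalamus and habenula, averaged 408 CPM there and had its highest Sham mean in MDT, at 774 CPM. Of other region markers, the accumbens genes Adora2a, Drd2 and Ppp1r1b had their highest Sham means in NAcC, and Th and Slc6a3 in VTA. Penk, also listed for the accumbens, was highest in BLA (1646 CPM), where Adora2a averaged 86.6 CPM beside 132 CPM in NAcC. Neurod1, listed for the dentate gyrus, averaged 103 CPM in PAG and 55.2 CPM in dorDG. Hcrt, listed for LH, averaged 219 CPM in VMH and 152 CPM in LH. The part of dissection in the Fos values was not tested. In the hypothalamus, VMH held 15.0 ± 2.35 CPM of Fos in Sham and 24.4 ± 8.45 CPM in FT. LH held 12.1 ± 4.64 and 15.3 ± 4.31 CPM. The mPoA (medial preoptic area) held 14.2 ± 4.29 CPM in Sham and 19.7 ± 1.21 CPM in FT (n = 2). Arc (arcuate nucleus) held 10.8 ± 1.47 CPM in Sham (n = 2) and 18.2 ± 5.26 CPM in FT.

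The dentate gyrus and the hindbrain were at the low end. In dorDG (dorsal dentate gyrus) Fos stood at 8.59 ± 3.97 CPM in Sham and 11.1 ± 1.65 CPM in FT. In venDG (ventral dentate gyrus) it stood at 10.3 ± 2.50 and 10.1 ± 3.85 CPM, with no difference between the means beyond their spread. Of the midbrain regions, VTA (ventral tegmental area) held 14.0 ± 4.07 CPM in Sham and 18.6 ± 2.46 CPM in FT. PAG (periaqueductal grey) held 14.1 ± 3.25 and 25.7 ± 10.4 CPM. The raphe, the seat of the serotonin neurons, held 10.3 ± 3.17 and 15.1 ± 2.97 CPM. LC (locus coeruleus, the noradrenergic nucleus) was the region with a lower FT mean that also had a negative fold change: 9.67 ± 3.18 CPM in Sham and 8.17 ± 1.68 CPM in FT. Nts (nucleus of the solitary tract) was lowest in Sham, at 6.94 ± 4.78 CPM against 9.08 ± 1.32 CPM in FT. Without its replicate 3 pair the Nts means were 9.25 ± 1.46 CPM in Sham and 9.70 ± 0.543 CPM in FT, with n = 3 in each.

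**Figure D1:**
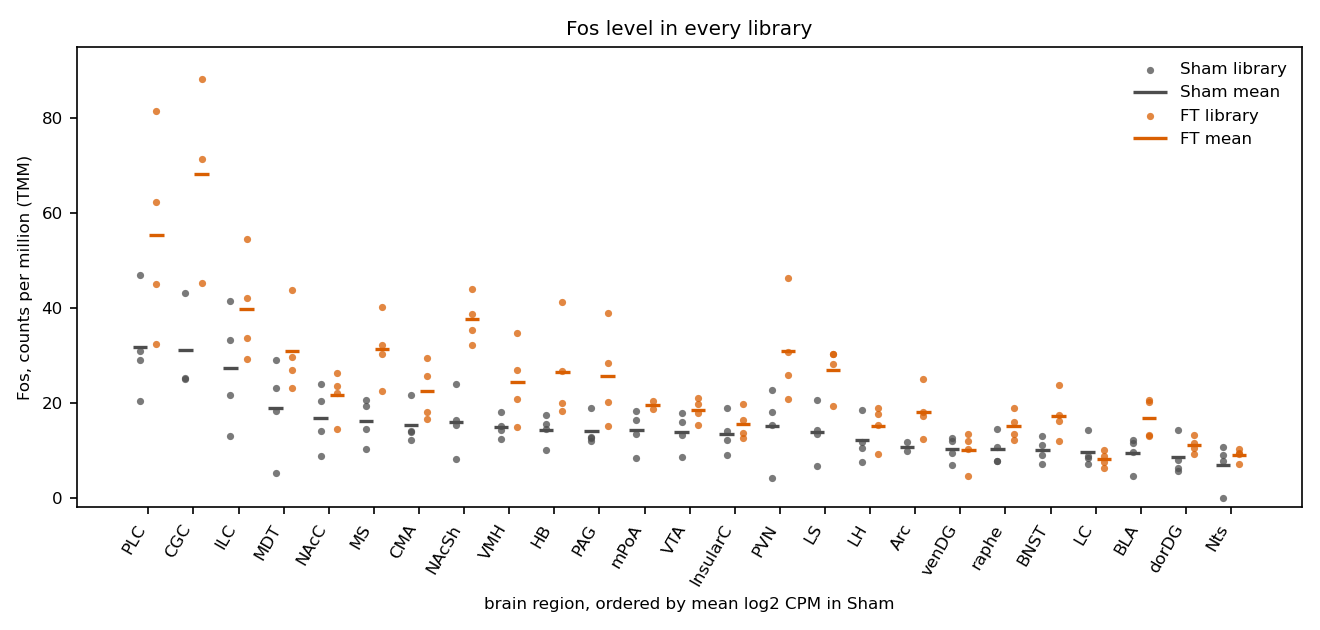
Fos CPM (TMM-scaled, linear axis) in each library of 25 brain regions, ordered from left to right by the mean log2 CPM in Sham. Grey points are Sham and orange points FT libraries, and horizontal bars are group means. PLC, CGC and ILC hold the highest levels in both groups, and the Sham Nts library at 0 is the one with 4586 reads. The CGC pair of replicate 1 is not drawn.

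Fos differed between regions in Sham. In a joint edgeR quasi-likelihood F test over 97 Sham libraries with the replicate number as a block, the adjusted p was 2.4e-11. Of 16977 transcripts tested, 75.6% passed the same threshold of 0.1, so a difference between regions is what most transcripts show. The means of log2 CPM spanned a 9.39-fold range in Sham, from PLC to Nts. Without the 2 shallow Sham libraries (replicate 3 of Nts and ILC) that range was 3.82-fold and dorDG was lowest. The Sham ILC library of replicate 1 also stood apart, with 82.9% of its reads on the 50 most abundant transcripts and 41.5 CPM of Fos. ILC had a mean log2 CPM of 4.96 without the shallow library and 4.76 without both, so its rank among the 3 cortical regions rests on these libraries. In FT it was 8.07-fold, from CGC to LC.

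Neighbours in the order of Sham levels lay within the spread of their libraries. Of 24 neighbouring pairs, 23 differed by less than the smaller SD of log2 CPM of the pair, a closeness that the ordering itself favours. An exact permutation test says nothing here, since 4 libraries against 4 allow a p of 0.0286 at best, which is 0.686 after adjustment of a single pair over all 24. The largest gap, 1.32 on the log2 scale between dorDG and Nts, includes the library with no Fos read. The next largest, 0.65, lay between ILC and MDT, that is, between the 3 cortical regions at the top and all others. The order in FT resembled that in Sham: over the 25 region means of log2 CPM, Pearson's r was 0.85 and Spearman's rho 0.86, points that share region, dissection and depth.

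The comparison of FT with Sham within each region asks where fluoxetine changed the level. Fos was higher in FT in most of the brain. The log2 fold change (log2FC) from edgeR, with the replicate number as a block, was above 0 in 24 of 25 regions, all but LC, and its median was 0.78. Among 11365 transcripts tested in every region, 8.28% were positive in at least 24, and their median was 13 regions. By replicate pair, FT exceeded Sham in 83 of 95 comparisons of log2 CPM, and in 64 of 72 without replicate 3. Of 17302 transcripts, 1.28% were higher in FT in more pairs than Fos. In 16 regions every available pair was higher in FT, 13 of them with all 4 pairs. As the regions share pools, these counts carry no test. Fos was taken from a list of transcripts that the study found changed in these samples. Its place among all transcripts, here and below, is therefore not independent of that choice. Of 45555 tests of all named transcripts, 58.6% had a positive log2FC.

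**Figure D2:**
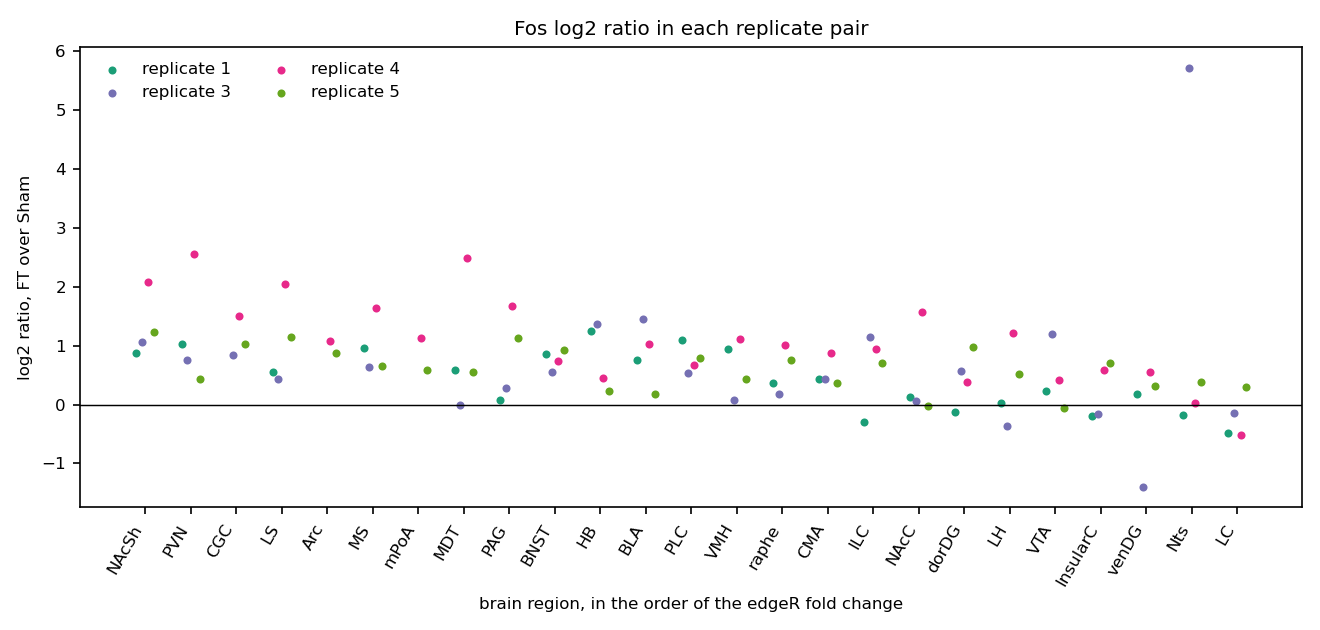
Log2 ratio of Fos in FT over Sham (log2 CPM, prior count 2) for each of 95 replicate pairs, by region, coloured by replicate number. Most points lie above 0, the replicate 4 points are often the highest, and the Nts point of replicate 3 at 5.72 rests on a Sham library with no Fos read.

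Fos passed the test in 3 regions: CGC, mPoA and Arc. A call needed an adjusted p of at most 0.1 over all transcripts of the region (edgeR quasi-likelihood test, Benjamini-Hochberg) and a log2FC of at least 0.32 in size. Over all 25 regions, 1.01% of tests were called higher in FT by this rule. At an unadjusted p under 0.05, Fos passed in 16 regions, each with a higher FT level, where 7.47% of all tests did so in that direction.

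In CGC the Sham libraries of replicates 3, 4 and 5 held 25.1, 25.2 and 43.2 CPM of Fos. The FT libraries held 45.3, 71.5 and 88.2 CPM. The lowest FT library lay just above the highest Sham library, so the groups did not overlap, as for 3.29% of 17302 transcripts in this region. The log2FC was 1.13 ± 0.24 (SE, adjusted p = 0.0962 from edgeR), and 0.389% of 13125 transcripts were called higher. With the replicate 1 pair kept, the log2FC was 1.26 and the adjusted p 0.529, so this call depended on leaving that pair out. It was also lost without replicate 4 (log2FC 0.90, adjusted p = 0.157) or replicate 5 (1.08, adjusted p = 0.841), and held without replicate 3 (1.26, adjusted p = 0.00528). Without replicate 3, 4.05% of transcripts were called higher, beside 0.792% without replicate 4 and 0.0772% without replicate 5. Each of these fits left 1 residual degree of freedom.

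In mPoA the Sham libraries of replicates 1, 3, 4 and 5 held 18.3, 16.5, 8.52 and 13.6 CPM. The FT libraries of replicates 4 and 5 held 18.8 and 20.5 CPM. Both FT libraries were above every Sham library, but the Sham libraries of replicates 1 and 3 lay close to them. These 2 Sham libraries have no FT partner and carry no weight in the blocked fit, which left 1 residual degree of freedom. That fit gave a log2FC of 0.86 ± 0.29 (adjusted p = 0.0619, edgeR), in a region where 4.85% of transcripts were called higher and 11.7% had non-overlapping groups in this direction. Deviations of the 2 pairs from their group means had a median r of 0.066. That says little about the pairing, since 2 FT libraries mirror each other around their mean and the Sham mean includes unpaired libraries. Without the block the log2FC was 0.44 and the call was lost (adjusted p = 0.726). DESeq2 did not call it (adjusted p = 0.312).

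In Arc the Sham libraries of replicates 4 and 5 held 11.9 and 9.79 CPM. The FT libraries of replicates 1, 3, 4 and 5 held 17.3, 12.3, 25.1 and 18.0 CPM. The FT library of replicate 3 was close to the Sham values, and the groups did not overlap. The log2FC was 0.98 ± 0.17 (adjusted p = 0.0268, edgeR) and rests on the pairs of replicates 4 and 5, since the other FT libraries have no partner. Deviations of the pairs had a median r of -0.028, which says little here, as the 2 Sham libraries mirror each other. The fit left 1 residual degree of freedom. Without the block the log2FC was 0.77 and the call was lost (adjusted p = 0.512), and DESeq2 did not make it (adjusted p = 0.132). In Arc 13.7% of transcripts were called higher and 13.0% had non-overlapping groups in this direction. Here Fos was 1 of 1988 transcripts called higher.

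The largest log2FC was in NAcSh, which narrowly missed the threshold. The Sham libraries of replicates 1, 3, 4 and 5 held 24.0, 15.3, 8.19 and 16.5 CPM. The FT libraries held 44.1, 32.3, 35.3 and 38.8 CPM. Every FT library was above every Sham library, as for 0.931% of transcripts in this region. The log2FC was 1.35 ± 0.26 (adjusted p = 0.113, edgeR), and 0.648% of transcripts had a higher one. In the core of the accumbens the groups overlapped and the log2FC was 0.46 ± 0.32 (adjusted p = 0.454), falling to 0.022 without replicate 4. By edgeR no transcript was called higher in NAcSh (0% of 13416), although 2234 had an unadjusted p under 0.05 in either direction. DESeq2 called 469 transcripts higher there, Fos among them at an adjusted p of 0.00116. Over all regions DESeq2 called Fos in 4 (CGC, NAcSh, MS and PVN) and 2.58% of all its tests higher. Without replicate 5, edgeR called Fos in NAcSh too (1.35, adjusted p = 0.0867).

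Groups did not overlap in 7 regions in all, which besides these were MS, BLA and HB. In MS the Sham libraries held 20.6, 14.5, 10.3 and 19.3 CPM and the FT libraries 40.2, 22.6, 32.2 and 30.4 CPM, in the order of replicates 1, 3, 4 and 5. All FT values were higher, as for 1.54% of transcripts there, and the log2FC was 0.97 ± 0.25 (adjusted p = 0.19, edgeR; 0.023, DESeq2). In HB, in the same order, Sham held 17.4, 10.2, 14.5 and 15.5 CPM and FT 41.4, 26.7, 19.9 and 18.3 CPM. There the gap was large in replicates 1 and 3 and small in the others, 0.769% of transcripts had non-overlapping groups, and the log2FC was 0.81 ± 0.26 (adjusted p = 0.419). In BLA the lowest FT value, 13.1 CPM, stood above the highest Sham value, 12.1 CPM, as for 0.751% of transcripts, and the log2FC was 0.80 ± 0.24 (adjusted p = 0.276).

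Other regions had changes of like size with overlapping groups. In the PVN libraries the log2FC was 1.248 ± 0.36 (adjusted p = 0.197, edgeR; 0.0395, DESeq2). Sham replicate 4, at 4.28 CPM, lay far under the other Sham values of 15.3 to 22.7 CPM, and its FT partner held 25.9 CPM. In LS the log2FC was 1.08 ± 0.31 (adjusted p = 0.467). In PLC it was 0.78 ± 0.21 (adjusted p = 0.37), with Sham at 29.1, 30.9, 20.3 and 47.0 CPM and FT at 62.3, 45.1, 32.5 and 81.5 CPM in the order of replicates 1, 3, 4 and 5. Each PLC pair was higher in FT, and the groups overlapped because replicates 4 and 5 differed in level in both groups. BNST had the most even pairs of the regions with 4, with log2 ratios of 0.55 to 0.92 and a log2FC of 0.82 ± 0.22 (adjusted p = 0.348). The raphe had a log2FC of 0.58 ± 0.22 (adjusted p = 0.161), in a region where 3.08% of transcripts were called higher.

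Fos did not pass the test in either part of the dentate gyrus, in LC or in Nts. In LC the Sham libraries of replicates 1, 3, 4 and 5 held 14.3, 8.37, 8.92 and 7.09 CPM. The FT libraries held 10.1, 7.54, 6.21 and 8.79 CPM. The groups overlapped, 3 of 4 pairs were lower in FT, and the log2FC was -0.22 ± 0.27 (adjusted p = 0.737, edgeR). In venDG it was 0.07 ± 0.30 (adjusted p = 0.942), with FT replicate 3 at 4.69 CPM under its Sham partner at 12.5 CPM. In dorDG it was 0.43 ± 0.25 (adjusted p = 0.481). In Nts it was 0.07 ± 0.25 (adjusted p = 0.979), a value close to 0 although the mean of the 4 pair ratios was 1.49, since a library of 4586 reads adds little to a fit on counts while its ratio of 5.72 enters the mean in full.

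**Figure D3:**
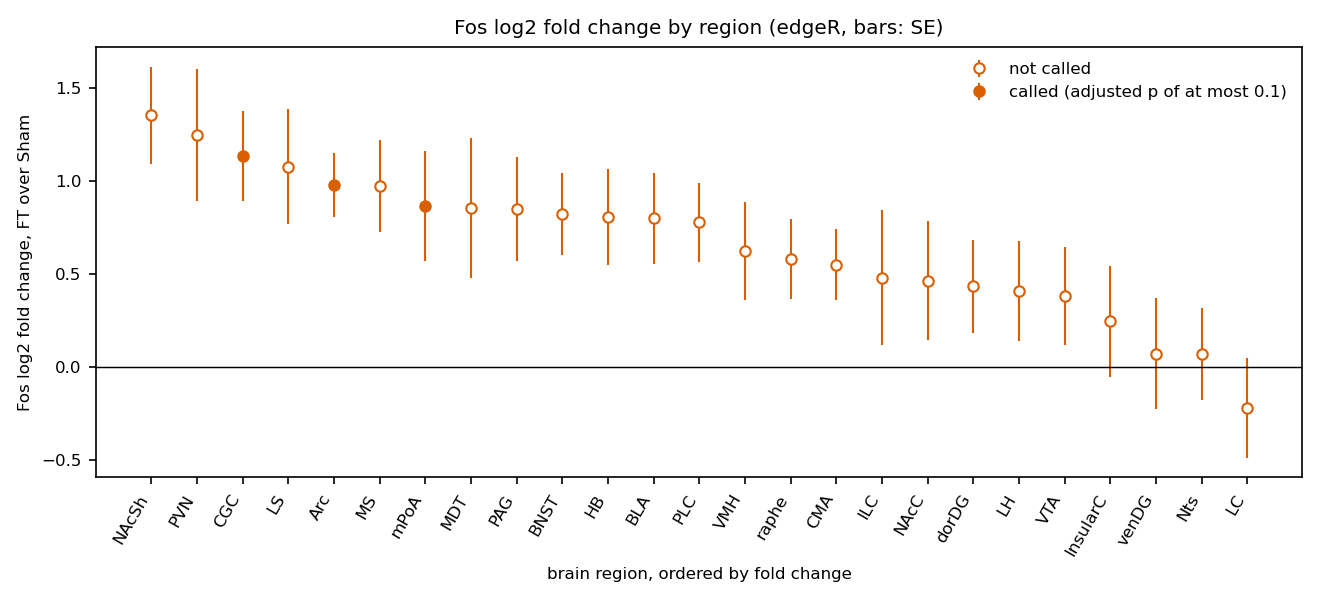
Fos log2 fold change of FT over Sham in each of 25 regions from edgeR with a replicate block, ordered from largest to smallest. Bars are ± SE, filled points are the 3 regions called (CGC, mPoA and Arc) and open points the others. Values run from 1.35 in NAcSh to -0.22 in LC.

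The response differed in size between replicate numbers. Over the 22 regions with all 4 pairs, FT exceeded Sham by a mean log2 CPM of 0.41 in replicate 1, 0.65 in replicate 3, 1.07 in replicate 4 and 0.58 in replicate 5. All of them were above 0, with a mean of 0.68 and an SD of 0.28 over the 4 numbers, as were all 4 means for 15.7% of transcripts. Of 17302 transcripts, 1.71% had a higher mean ratio than Fos. The replicate 3 mean includes the shallow pairs of Nts and ILC. Without them it was 0.38, the lowest of the 4, and the mean over the 4 numbers was 0.61. An exact two-sided sign-flip test over the 4 numbers gave p = 0.13, the smallest value that 4 pairs allow, so this design cannot pass 0.05. The wide ratio of replicate 4 went with a low Sham value: the mean log2 CPM of Sham was 3.27 there, against 4.23, 3.35 and 3.79 in replicates 1, 3 and 5. The Sham value of replicate 3 includes the Nts library with no Fos read, at a log2 CPM of -2.84. Fos in FT was 4.34 in replicate 4, between 4.01 in replicate 3 and 4.64 in replicate 1.

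**Figure D4:**
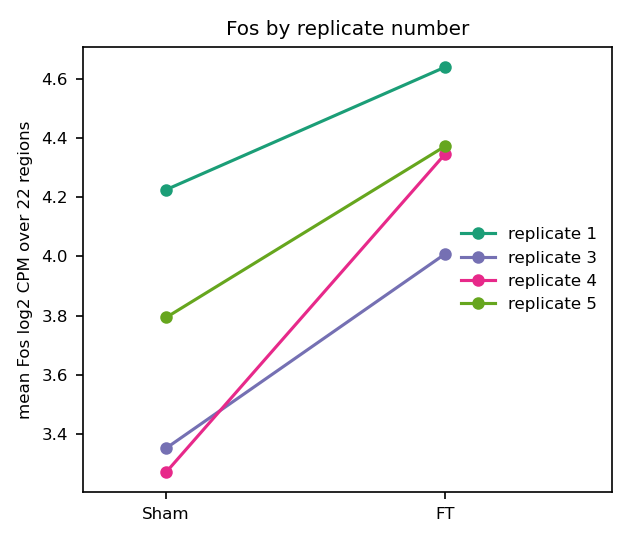
Mean Fos log2 CPM over the 22 regions with 4 replicate pairs, in Sham and in FT, with a line for each replicate number. All 4 lines rise from Sham to FT, and replicate 4 rises from 3.27 to 4.34. The Sham point of replicate 3 includes the Nts library with no Fos read.

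Whether the response itself differed between regions was tested as an interaction. A joint edgeR fit of 190 paired libraries held a block for each region and number, and an FT effect for each number shared by all regions. The region terms of the FT effect gave an adjusted p of 0.0805, and 5.66% of 17287 transcripts passed at 0.1. The call was lost without the shared FT effect of each number (adjusted p = 0.671), without the replicate block (adjusted p = 1), with RLE size factors (0.131), and without replicate 1, 3 or 4 (0.47, 0.587 and 0.338). Without replicate 5 it held (0.0725).

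Between replicate pairs, Fos was about as variable as other transcripts of its abundance. The square root of its edgeR dispersion, the biological coefficient of variation, ran from 0.137 in Arc to 0.362 in MDT. Over regions, a median of 55.4% of transcripts within 0.5 log2 CPM of Fos had a lower dispersion. It was among the steadier transcripts in BNST, where 3.72% were lower, and among the more variable in MDT, where 95.8% were lower.

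Other activity-induced genes gave a mixed picture. Of a list of 45 such genes, 7 have names in the table used here, which lists transcripts that the study itself found changed, so their directions are not independent of these samples. The other 38, such as Egr1 and Npas4, were not analysed here. Vgf, a secreted neuropeptide precursor induced by BDNF, was positive in all 25 regions with a median log2FC of 0.93. Ppp1r15a, a stress-responsive phosphatase subunit, was positive in 23 with a median of 0.79. Cyr61, a matricellular protein encoded by a growth-factor-induced gene, was positive in all 23 regions tested with a median of 1.09. By edgeR these 3 genes were called higher in mPoA and Arc alone, while DESeq2 called Vgf higher in 8 regions, Ppp1r15a in 6 and Cyr61 in 2. Over all transcripts and regions DESeq2 called 2.58% of tests higher, a share that was not computed for the named transcripts. The replicate numbers did not all share this direction. In replicates 1, 3, 4 and 5 the mean pair log2 ratio of Cyr61 was -0.038, -0.53, 1.30 and 2.02. That of Vgf was -0.17, 0.68, 1.14 and 1.86, and that of Ppp1r15a 0.65, 0.60, 1.05 and 0.56. Regions share pools, so a positive value in every region is not a set of independent results.

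The remaining members of that list split. Cdkn1a, a cell cycle inhibitor, had a median log2FC of 0.54 and Nab2, a repressor of Egr proteins, one of 0.43, and edgeR called neither in any region, where DESeq2 called them higher in 3 and 1. Syt4, a vesicle protein, had a median of -0.26, with no call by edgeR and 6 lower by DESeq2. The share of all DESeq2 tests called lower, over all regions together, was not computed. Rasgef1b, a Ras family exchange factor, had a median of -1.02 and was called lower in mPoA and Arc by edgeR. In all, edgeR called 6 of 170 tests of the list (3.53%) higher and 2 lower (1.18%), beside 3.67% and 2.68% of 45555 tests of all named transcripts. In CGC none of the 7 was called, with adjusted p-values of 0.209 for Cyr61, 0.179 for Vgf (log2FC 1.01) and 0.252 for Ppp1r15a (0.98).

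Genes of the signal path to the Fos promoter were called lower by edgeR more often than higher. Of 26 genes listed, 15 have names. Tests called higher numbered 5 of 367 (1.36%) and tests called lower 15 (4.09%), beside 3.67% and 2.68% over all named transcripts, with a median log2FC of -0.38 beside 0.18 over all named transcripts. Calm3, a gene for the calcium sensor calmodulin, was positive in all 25 regions with a median of 0.60 and was called in mPoA and Arc. Calm2, which encodes the same protein, was positive in 21 with a median of 0.26 and was called in Arc. Rps6ka4, the kinase MSK2 that phosphorylates CREB, was positive in all 25 with a median of 0.59 and a call in Arc. Map2k2, a kinase that activates ERK, was positive in 22 and not called by edgeR, where DESeq2 called it in 2. In replicates 1, 3, 4 and 5 the mean pair log2 ratio of Calm2 was -0.16, -0.082, 0.51 and 0.85. That of Map2k2 was 0.49, 0.67, 0.75 and -0.0055, with the shallow pairs in replicate 3. For Calm3 (0.019 in replicate 1) and Rps6ka4 the means were above 0 in every replicate number.

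Other upstream members ran the other way, with calls again from edgeR. Prkacb, a catalytic subunit of protein kinase A, had a median log2FC of -0.93 and was called lower in mPoA and Arc. Nras, a Ras GTPase upstream of ERK, had a median of -0.65 with calls in the lower direction in Arc, mPoA and raphe. Ntrk2, the receptor for BDNF, had a median of -0.48 and was called lower in raphe and Arc. The Ras exchange factors Rasgrp1 and Rasgrf2 were each called lower in mPoA and Arc. Camk2a, a calcium-dependent kinase, was called lower in mPoA with a median of -0.83, and Adcy7, an adenylate cyclase, in raphe. Dusp7, an ERK phosphatase, was called lower in raphe and Nts. In Nts, 511 of 12277 transcripts were called in either direction, and 0 of 12953 without the shallow pair of replicate 3. Adcy1, a calcium-stimulated adenylate cyclase, was negative in all 20 regions tested with a median of -1.02. Pkia, an inhibitor of protein kinase A, was negative in 24 of 25 with a median of -0.73. EdgeR called neither, and DESeq2 called Adcy1 lower in 2 regions and Pkia in 8, again without a share of lower calls over all regions beside it. In replicates 1, 3, 4 and 5 the mean pair log2 ratio of Adcy1 was -0.93, 0.30, -1.05 and -1.94. Replicate 3 means, which include the shallow pairs, were also above 0 for Prkacb, Nras, Ntrk2, Rasgrf2, Camk2a, Adcy7 and Dusp7. They were below 0 for Rasgrp1 and Pkia. Ntrk2 (0.028) and Rasgrf2 (0.24) were above 0 in replicate 1 too.

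**Figure D5:**
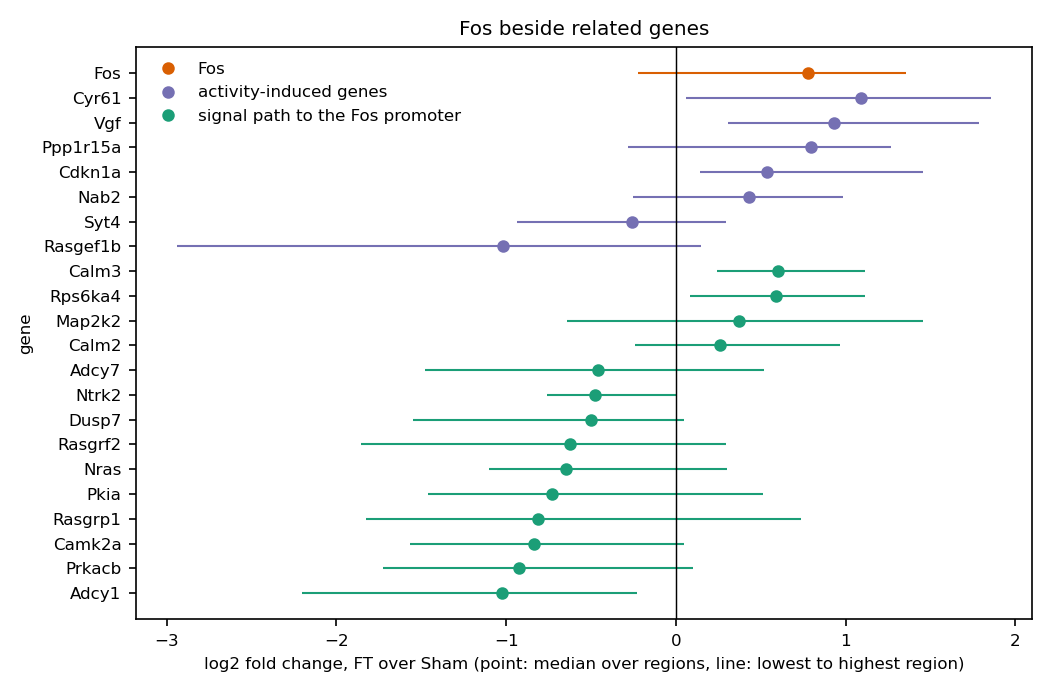
Log2 fold change of FT over Sham for Fos, for the 7 activity-induced genes and for 14 signal path genes with names. Points are medians over the regions tested and lines run from the lowest to the highest region. Fos has a median of 0.78, Cyr61, Vgf and, narrowly, Ppp1r15a (0.79) lie above it, and Adcy1 has the lowest median of the signal path genes at -1.02.

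Likeness to Fos was measured as Pearson's r over 1843 named transcripts, without a test. Over the 25 Sham region means of log2 CPM, the 5 highest were Lysmd2 (0.86), Tob1 (0.83), Nrsn1 (0.81), Vsnl1 (0.79) and Ppip5k1 (0.79). Each of them was lowest in Nts, whose mean holds the library of 4586 reads. Without the shallow libraries their r fell to 0.74, 0.66, 0.68, 0.58 and 0.64, the median over all named transcripts fell from 0.35 to -0.04, and Cyr61 became the highest with r = 0.80. In the FT region means, which the choice did not use, Nrsn1 had r = 0.58 and Lysmd2 r = 0.03. The points share region, dissection and depth.

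Over the 95 pair log2 ratios the 5 highest were Igsf21 (0.82), Mfsd5 (0.79), Clk3 (0.79), Slc4a3 (0.79) and Dennd6b (0.79), beside a median of 0.44 over all named transcripts. Without the 2 shallow pairs they stood at 0.70, 0.62, 0.62, 0.62 and 0.63, the median was 0.069, and Igsf21 remained the highest. Igsf21 is a synaptic adhesion protein. It was higher in FT in 79 of 95 pairs with a mean log2 ratio of 0.65. Without the shallow pairs the 7 activity-induced genes ranged from -0.15 (Syt4) to 0.56 (Ppp1r15a), and Ppp1r15a had r = -0.44 over the Sham region means. Pairs of a number may share animals and preparation, so these points are not independent.

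Markers of other cell types were also called in Arc and mPoA. Over all transcripts 13.7% were called higher and 10.8% lower in Arc, and 4.85% and 4.74% in mPoA. In Arc, 3 of 9 oligodendrocyte markers were called higher (Olig2, Sox10 and Myrf) and 3 lower (Ugt8, Ermn and Aspa). Their summed level was 522 to 554 CPM in Sham and 284 to 477 CPM in FT. In mPoA, 1 of 9 was called (Sox10, higher), with sums of 368 to 693 CPM in Sham and 508 to 607 CPM in FT. Of 5 astrocyte markers, 1 was called higher (Slc7a10) in both regions, with 4 called lower in Arc and 3 in mPoA. The astrocyte sums ran from 985 to 1123 CPM in Sham Arc, 651 to 6613 CPM in FT Arc, 1170 to 3027 CPM in Sham mPoA and 660 to 752 CPM in FT mPoA. Of 6 neuronal markers in Arc, 1 was called higher (Syp) and 3 lower, and in mPoA none was called. Of 4 microglial markers, 2 were called lower in each of Arc and mPoA and none higher, and their sums were 49.9 to 53.4 CPM in Sham Arc, 29.5 to 86.5 CPM in FT Arc, 31.6 to 78.3 CPM in Sham mPoA and 32.6 to 34.8 CPM in FT mPoA. Of 5 vessel markers, Myh11 was called higher in both regions, with 4 lower in Arc and 1 lower in mPoA. The choroid plexus marker Ttr was called higher in Arc, where the sum of its list was 6.85 to 28.7 CPM in Sham and 40.4 to 52.6 CPM in FT. No blood marker was called in either region. In CGC no marker of any list was called, and the neuronal sums overlapped, at 2260 to 4722 CPM in Sham and 2314 to 4876 CPM in FT. Of 11 marker genes of brain nuclei tested in Arc, Hcrt, Avp, Oxt and Tcf7l2 were called higher and Th and Slc6a3 lower. The part of these differences in the Fos values was not tested.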

How the data were processed

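RNA of pooled brain punches was sequenced in 196 rat libraries. The authors deposited raw read counts per Ensembl transcript, without normalization. The submitters' processing notes name STAR, HTSeq, FastQC and the genome build rn5. Fos and other names were taken from the study's supplementary list, which names transcripts the study found changed in several regions. The gene and the lists were chosen with earlier results of these data known.

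Each region was fitted with edgeR 4.0.16 in R 4.3.3: TMM factors, filterByExpr (minimum count 10, minimum total 15), a quasi-likelihood test and a block for the replicate number. The SE was derived from log2FC and the F statistic (size of log2FC over the root of F). Calls needed a log2FC of 0.32 or more in size and an adjusted p (Benjamini-Hochberg) no higher than 0.1. The CGC replicate 1 pair was left out. Joint fits tested region levels in Sham and region differences in the response, the latter with glmQLFit and legacy=FALSE. CPM and log2 CPM (prior count 2) used TMM factors over all libraries. Single values were tested by exact permutation in scipy 1.17.1. Replicate numbers were taken as pairs because the study's methods state that same-numbered FT and Sham libraries were processed in parallel. Their deviations from group means correlated with a median r of 0.65 over regions, and every pair exceeded 0.1 in 23 of 25 regions, all but mPoA and Arc. In those 2 regions a group of 2 libraries makes this check weak. Pools are the replicates, and p-values cover the spread between pools only. Counting error is largest in replicate 3. The scripts were tested on simulated data. DESeq2 1.42.0, other scalings and filters, no block, and leaving out replicates were tried as alternatives.

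Named genes were all listed members with a name (1 member of the signal path list enters its counts but is not reported here by itself), and the 5 transcripts with the highest r to Fos in each of 2 measures. No library was imputed.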

Additional observations from a re-analysis of the deposited data

Results flagged for a closer look

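The Fos response to fluoxetine differed between regions in the joint edgeR fit, at an adjusted p of 0.0805, with log2FC values from -0.22 in LC to 1.35 in NAcSh. That call was lost under several alternatives, given with the dependence on processing.

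In 46 groups of 4 libraries, the gap of the highest or lowest library to its neighbour was compared with the range of the group. In 3 groups it passed Dixon's 95% critical value, and chance alone flags about 5% of groups. In Sham Nts, replicate 3 lay lowest at a log2 CPM of -2.84, with no Fos read among 4586. In Sham PAG, replicate 1 lay highest at 4.26, or 19.0 CPM. In FT LS, replicate 3 lay lowest at 4.28, or 19.3 CPM.

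The CGC pair of replicate 1, left out of the comparison, held the highest TMM-scaled Fos level of all libraries: 101 CPM in FT, above every Sham CGC library. That FT library had 189 Fos reads among 6398052, and 83.3% of its reads fell on its 50 most abundant transcripts. Its Sham partner held 34.1 CPM, from 1712 Fos reads among 46781494, with 43.0% on the 50 most abundant. The level of 101 CPM therefore depends strongly on the TMM scaling of the FT library.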

How the results depend on the processing

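The count of regions in which Fos was called, 3, was 9 without the low-count filter, 4 with DESeq2, 0 without the replicate block and 1 at an adjusted p of 0.05, and it ran from 0 to 3 when replicates were left out in turn (0 without replicate 4 and 1, NAcSh, without replicate 5, where mPoA and Arc keep 1 pair and could not be fitted). Calls over all transcripts moved with these settings too. Without the block, 0% of transcripts were called higher in CGC and Arc and 0.00672% in mPoA. Without the filter, 2.36% were called higher in NAcSh and 2.37% in MS, beside 0% and 0.0376% with it. DESeq2 called 2.58% of all tests higher, beside 1.01% by edgeR. Only CGC was called by both edgeR and DESeq2. The direction was steadier: 20 to 24 regions stayed positive when a replicate was left out. The replicate block changed the CGC, mPoA and Arc calls: without it their log2FC values were 1.13, 0.44 and 0.77. With RLE size factors CGC (1.09) lost its call and NAcSh (1.32) gained one; with all 8 CGC libraries CGC stood at 1.26, not called. With DESeq2 mPoA (0.87) and Arc (0.97) were not called, while NAcSh (1.33), MS (0.99) and PVN (1.22) were, and LS and Nts had no adjusted p. Without the filter NAcSh (1.37), LS (1.10), MS (1.04), PVN (1.254), MDT (0.87) and PAG (0.86) were called. Over the replicates left out, log2FC ran from 0.90 to 1.26 in CGC, 1.06 to 1.47 in NAcSh, -0.17 to 0.35 in venDG, -0.077 to 0.20 in Nts, 0.022 to 0.60 in NAcC, 0.085 to 0.59 in LH, 0.069 to 0.41 in InsularC, 0.36 to 1.14 in MDT and 0.30 to 0.88 in ILC, and venDG turned negative without replicate 1 (-0.02), 4 (-0.17) or 5 (-0.07), Nts without replicate 5 (-0.077).

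The adjusted p of the difference in response between regions was 0.131 with RLE size factors, 0.671 without the shared effect of each number and 1 with no replicate block, and ran from 0.0725 to 0.587 when replicates were left out. The mean log2 ratio by replicate pair ran from 0.55 to 0.77 over all alternatives; without pairing, an exact permutation of the 4 FT and 4 Sham means gave p = 0.0571. The differences between regions in Sham held in every fit. Alternatives for the Sham order and likeness were chosen after seeing the data. The causes of these changes were not tested. Depth limits Nts, ILC and all replicate 3 values most.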
